A study of Mus musculus with 20 samples.

Results

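The tumours compared here stood at the opposite ends of a 2-factor mouse experiment: 5 tumours labelled CT26 POLE-mutant+anti-PD-1 and 5 labelled CT26-vector+PBS, 10 of the 20 RNA-seq libraries of the series. CT26 is a colon carcinoma cell line of the BALB/c mouse strain. The 5 vector PBS tumours grew from cells carrying the vector (genotype given as control) in mice that received phosphate-buffered saline, and the 5 mutant anti-PD-1 tumours grew from POLE-mutant cells in mice that received an antibody against PD-1. The other 10 tumours were 5 vector tumours under antibody and 5 mutant tumours under PBS. They entered the gene filter and the main fit, so the spread behind each p-value was pooled over all 4 groups. Their values are given below to order the 4 groups and to set the combined difference beside its 2 single steps. All 4 groups share the CT26 line, tumour tissue as the source, and total RNA. The POLE allele, the number of mutant clones, the antibody's dose and schedule, the day of collection, and the age and sex of the mice are stated by none of the sources used here, so the mutation cannot be told apart from any other difference between the 2 cell populations. The title of the series names CHEK2 whereas its design text and sample labels name POLE, and the labels were followed. The design text gives 5 samples per group from mice without naming individual animals. The p-values therefore measure the spread between tumours within the 4 groups.

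POLE is the gene of the polymerase epsilon subunit that copies the leading strand of DNA and proofreads its own work. Tumours with a defective proofreading domain accumulate point mutations and are known for many mutant peptides that T cells can recognise. PD-1 is an inhibitory receptor of activated T cells, and antibodies that block its binding to the ligand PD-L1 release those cells. Activated T and natural killer cells secrete interferon-gamma, which acts through transcription factors such as IRF1 and, through CIITA, on the genes of MHC class II, the molecules that present peptides to CD4 T cells.

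Levels are FPKM, fragments scaled to transcript length and to the library's mapped fragments, as deposited. A fold change is a difference on the log2(FPKM + 1) scale, which understates the change of genes near or below 1 FPKM. A gene was tested where at least 5 of the 20 libraries reached 1 FPKM, and was called higher or lower in the mutant anti-PD-1 tumours at a limma adjusted p under 0.05. The number of reads behind each library is unknown. Summed FPKM ran from 332127 to 395938 in the vector PBS tumours and from 328740 to 355819 in the mutant anti-PD-1 tumours, and the mitochondrial share of it from 7.10% to 11.1% and from 6.76% to 8.58%. Mutant anti-PD-1 tumours 1 and 2 stood apart, with mean Spearman correlations to the other libraries of 0.874 and 0.889, as did vector anti-PD-1 tumour 1 at 0.873, while the remaining 17 libraries reached 0.906 or more.

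Pole itself (chr5:110286306-110337474, mm10) was measured at 6.45, 7.38, 9.5, 9.35 and 10.4 FPKM in the vector PBS tumours and at 1.30, 3.40, 4.75, 4.52 and 5.71 FPKM in the mutant anti-PD-1 tumours. Every mutant anti-PD-1 tumour lay below every vector PBS tumour. The log2 fold change was -1.14 ± 0.18 (SE, adjusted p = 0.000130). Whole-gene FPKM cannot show a point mutation, so these values do not check the genotype label. Chek2, a checkpoint kinase named in the title, had 6.43 ± 1.23 FPKM (SD, n = 5) against 5.03 ± 1.32 FPKM, with overlapping groups, a log2 fold change of -0.39 ± 0.13 and an adjusted p of 0.0301, which 11 of 24 alternative settings put above 0.05.

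Few epithelial genes were measurable in these tumours of a colon carcinoma line. Of 16 genes of an epithelial and colon carcinoma list, 5 reached the tested range, and Epcam, the usual epithelial surface marker, had 0.0538 ± 0.0619 FPKM in the vector PBS tumours and 0.10 ± 0.0607 FPKM in the mutant anti-PD-1 tumours. Esrp1, a splicing factor of epithelial cells, was listed at 0 in both groups, Cldn3 in the vector PBS tumours and Cdx2 in the mutant anti-PD-1 tumours. Krt18, a keratin of simple epithelia, was the listed gene that fell, by 1.76 ± 0.34 on the log2 scale (adjusted p = 0.000706), with 12.9 ± 2.84 FPKM before and 4.09 ± 2.94 FPKM in the treated mutant tumours.

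Skeletal muscle genes separated the 2 groups. The muscle score, the mean log2(FPKM + 1) of the 19 tested genes of the list, was 1.0, 0.54, 0.68, 0.56 and 0.50 in the vector PBS tumours and 2.97, 5.82, 3.98, 3.81 and 2.61 in the mutant anti-PD-1 tumours. Every mutant anti-PD-1 tumour lay above every vector PBS tumour, and among the other groups vector anti-PD-1 tumours 1 and 3 and mutant PBS tumours 2 and 3 were high too. Of the 20 listed genes, none was at 0 throughout a group, and their summed level ran from 47.4 to 58.3 FPKM against 167.2 to 2073.4 FPKM. Adipocyte genes moved with the groups as well, at 12.3 to 31.8 FPKM against 33.5 to 470.2 FPKM in sum over 11 genes, with Lep, Plin1 and Retn at 0 in every vector PBS tumour. Where a list's count changed by over 1.5 times with the muscle score as a covariate, the count under it is given beside. The score separated the 2 groups, so as a covariate it widens the SE of their difference. A call lost under it is thus not by itself a smaller difference. For replication genes the median log2 fold change was -0.57 without and -0.61 with the covariate, and for collagen and fibroblast genes 1.08 and 0.51. The part of the adipocyte genes was not tested.

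Over all genes, 4844 of 13982 tested genes (34.6%) were called, 2326 higher (16.6%) and 2518 lower (18.0%). These shares are the background of each list count below. The rises were the larger changes. At least 2-fold differences numbered 1381 higher and 300 lower, at least 4-fold 432 and 18, and at least 16-fold 44 and 0. The median log2 fold change was 1.18 among genes called higher, -0.64 among those called lower and -0.11 over all tested genes. For 2051 genes the 5 mutant anti-PD-1 tumours all exceeded the 5 vector PBS tumours, and for 2219 they all lay below, together 30.5% of the tested genes. With the muscle score as a covariate 1832 genes were called, 1169 higher and 663 lower, of which 1819 were among the 4844. Without the 3 libraries that stood apart 4133 were called, 3243 of them shared. Sample identifiers came in 2 styles, with and without a leading M, and the fit carries that style as a term. Within M-style libraries 3759 genes were called and within number-only libraries 3673. The M-style mutant anti-PD-1 tumours were 1 and 2, which stood apart, and the number-only ones were 3, 4 and 5. In that group the split by style and the removal of the 3 libraries are therefore not separate checks. Scaling every library to the same total moved the split from 48% to 59.9% higher, and quantile normalization moved it to 38.3%.

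**Figure D1:**
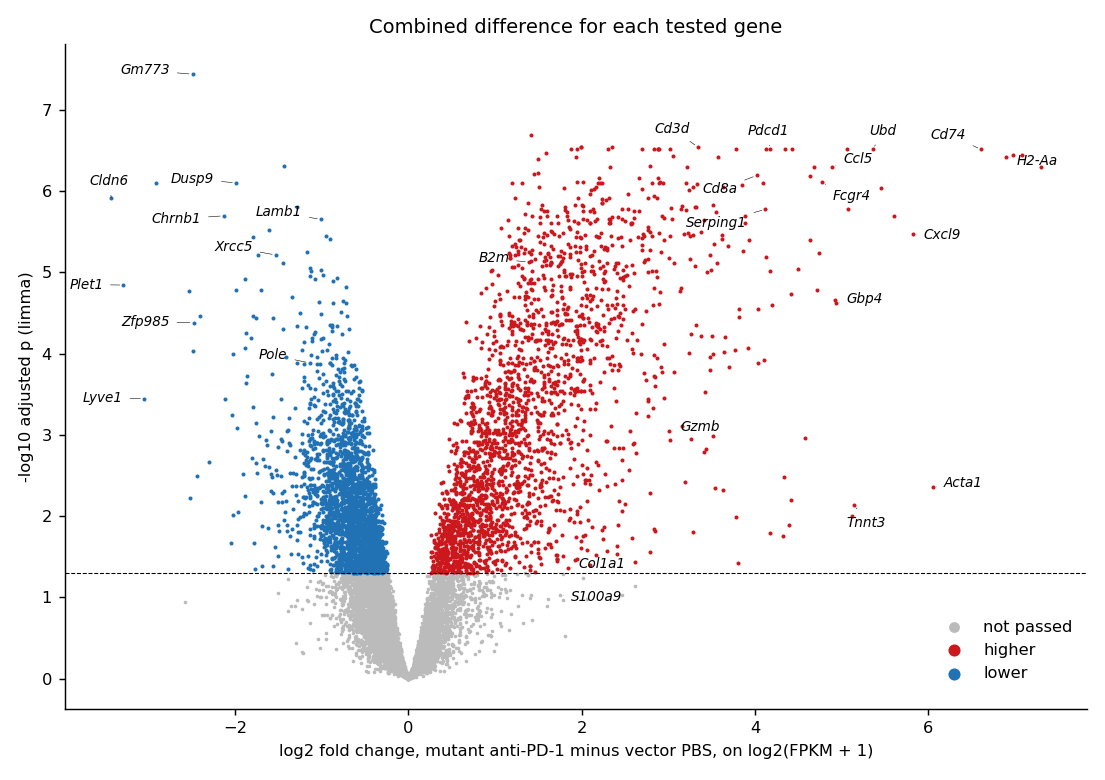
Each point is 1 of 13982 tested genes, with the log2 fold change between mutant anti-PD-1 and vector PBS tumours on the horizontal axis and -log10 of the limma adjusted p on the vertical axis; the dashed line marks 0.05. Red points were called higher (2326), blue points lower (2518), and the red cloud reaches beyond a log2 fold change of 7 whereas the blue cloud ends near -3.43, the value of Cldn6.

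The 2 groups were set side by side as the extremes of immune infiltration among the 4, an ordering that held for most list scores but not for each. Over 29 immune gene lists the mutant anti-PD-1 mean was the highest of the 4 group means in 28 and the vector PBS mean the lowest in 23. The exceptions at the low end were macrophage, monocyte, mast cell, neutrophil chemokine, NF-kappaB feedback and granzyme cluster lists, in which another group lay lowest. Scores average the tested members only. Of these, 13 of 16 T cell and 5 of 6 regulatory genes passed the filter only through the mutant anti-PD-1 tumours. For macrophage identity this held for 0 of 20. Such a filter favours the mutant anti-PD-1 group, and the lists were chosen with earlier results known. The counts over lists are thus no separate evidence of the ordering. Among single genes, 1251 of the 2326 called higher (53.8%) and 1284 of the 2518 called lower (51.0%) had these 2 groups as the extremes of the 4 means. A call between these 2 groups favours them as extremes, and the share over all tested genes was not counted. The shares of single genes are therefore no separate evidence of the ordering either. In bulk tumour RNA, more cells of a type and more RNA per cell cannot be told apart.

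**Figure D2:**
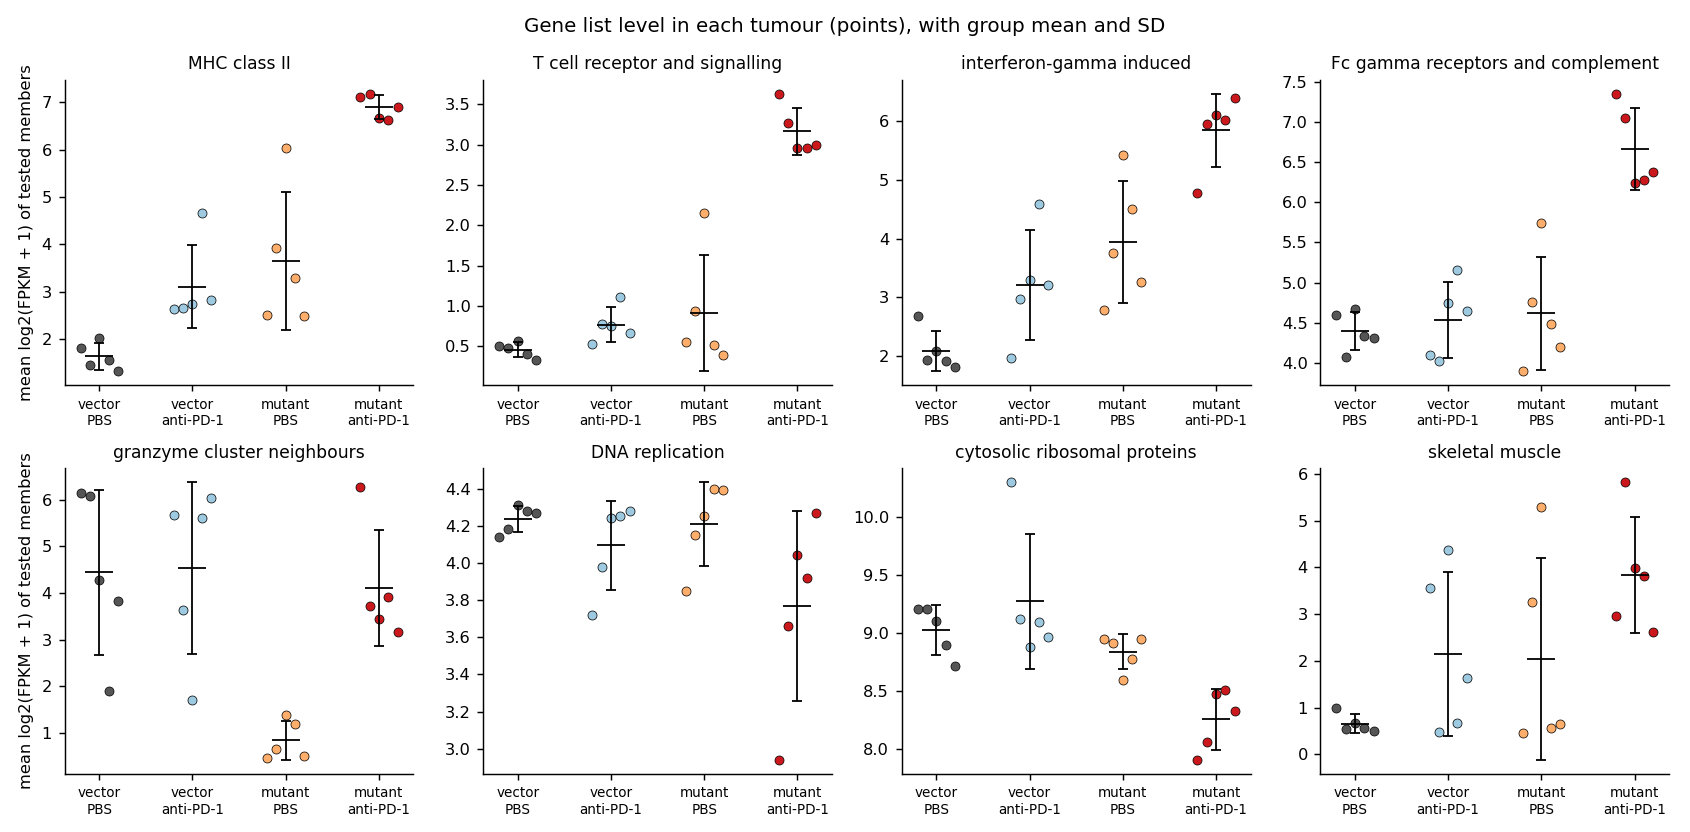
Points are single tumours, bars the group mean ± SD (n = 5), and the vertical axis the mean log2(FPKM + 1) over the tested genes of each list. Mutant anti-PD-1 tumours are above every vector PBS tumour for MHC class II, T cell, interferon-gamma induced, Fc receptor and complement, and muscle genes, below every one for ribosomal proteins, and among them for the granzyme cluster neighbours.

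MHC class II genes rose most. H2-Aa (chr17:34282744-34287823), the alpha chain of the I-A molecule, had 3.83, 2.13, 4.75, 2.04 and 1.59 FPKM in the vector PBS tumours and 579.6, 517.0, 275.0, 298.0 and 357.1 FPKM in the mutant anti-PD-1 tumours. The groups were far apart, with the lowest treated mutant tumour at 275.0 and the highest control at 4.75. Its log2 fold change was 6.90 ± 0.60 (adjusted p = 3.84e-07), and the antibody-only and mutant-only groups lay between, at 17.9 ± 18.6 and 44.1 ± 66.8 FPKM (SD, n = 5). H2-Eb1, a beta chain of the I-E molecule, rose from 2.79 ± 1.16 to 454.1 ± 141.5 FPKM (7.08 ± 0.61). Outside the naming rule, and named after its value was seen, H2-Ea-ps, annotated as a pseudogene in the reference strain, had a larger log2 fold change still, 7.30, at 7.61 and 1161.9 FPKM on average. Cd74, the invariant chain that guides class II molecules through the cell, rose from 11.4 ± 3.20 to 1076.2 ± 232.4 FPKM (6.61 ± 0.54). Ciita, the class II transactivator, had mean levels of 0.0644 and 9.36 FPKM, a difference of 3.31 ± 0.34 (adjusted p = 1.56e-06). All 8 tested genes of the 10-gene list were called higher, with a median log2 fold change of 5.84, and 8 of 8 were called with the muscle covariate (median 5.12). H2-Oa and H2-Ob did not reach the tested range; in the fit without a filter all 10 were called higher.

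MHC class I genes rose from a high starting level. B2m, the light chain of class I molecules, had 1739.4, 1573.1, 1528.5, 1316.2 and 1341.8 FPKM in the vector PBS tumours and 4255.7, 3804.7, 3815.4, 3539.3 and 3627.0 FPKM in the mutant anti-PD-1 tumours. No value was shared between the ranges, and the log2 fold change was 1.39 ± 0.17 (adjusted p = 7.49e-06). The heavy chains H2-K1 (68.3 ± 13.1 to 227.8 ± 36.7 FPKM) and H2-D1 (339.6 ± 44.9 to 995.1 ± 180.4 FPKM) rose by 1.78 and 1.60 on the log2 scale. Psmb9, an interferon-inducible subunit of the immunoproteasome, rose by 3.04 ± 0.32. Of 17 tested class I and peptide-loading genes 14 were called higher, and the 3 that were not (Calr, Pdia3 and Canx, general chaperones of the endoplasmic reticulum) had log2 fold changes of 0.05, 0.10 and -0.16. The muscle covariate left 10 of these calls (median log2 fold change 1.67, beside 1.78 in the main fit) and M-style libraries alone 9. All 13 nonclassical class I genes were called higher, with a median of 1.66 and H2-T23, which encodes Qa-1, at 3.03; within M-style libraries 8 were. Members of the H2 family are close copies of each other and differ between BALB/c and the C57BL/6 reference, so their single values are uncertain.

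The interferon-gamma gene itself was nearly silent in the control tumours. Ifng (chr10:118441046-118445892) was listed at 0 in vector PBS tumours 1 to 4 and at 0.0302 FPKM in tumour 5, and had 5.10, 9.17, 8.55, 8.23 and 9.07 FPKM in the mutant anti-PD-1 tumours. The difference was 3.15 ± 0.32 on the log2(FPKM + 1) scale (adjusted p = 1.67e-06). Irf1, a transcription factor of the interferon cascade, ranged from 12.1 to 18.7 FPKM against 21.3 to 118.3 FPKM (1.61 ± 0.48, adjusted p = 0.0155). Of 14 tested signalling genes 10 were called higher, and the receptor chains Ifngr1 and Ifngr2, at log2 fold changes of 0.80 and 0.45, were not. Adding the muscle score as a covariate left 6 called higher, and M-style libraries alone 5.

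Genes that interferon-gamma induces were called higher in 26 of 26 cases, with a median log2 fold change of 3.76. Cxcl9 (chr5:92321347-92328079), a chemokine that draws T cells, had 5.27, 1.18, 1.87, 1.13 and 0.995 FPKM in the vector PBS tumours and 65.6, 200.8, 167.6, 161.5 and 259.7 FPKM in the mutant anti-PD-1 tumours. The ranges did not meet, and the log2 fold change was 5.82 ± 0.65 (adjusted p = 3.35e-06). Ubd, a ubiquitin-like modifier, rose from 0.334 ± 0.252 to 53.1 ± 9.83 FPKM (5.36 ± 0.44). Among the GTPases that attack pathogen vacuoles, Gbp2b rose by 4.72, Gbp4 by 4.93 and Tgtp1 by 4.74. Cd274, which encodes PD-L1, rose from 4.57 ± 0.590 to 72.0 ± 4.71 FPKM (3.69 ± 0.43, adjusted p = 4.77e-06). With the muscle covariate 25 of the 26 were called higher, within number-only libraries 26 and within M-style libraries 17. Mutant anti-PD-1 tumour 1 was the lowest of its group for this list, at a score of 4.78 beside 5.95 to 6.4 in the others.

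The promoters below are shown because the interferon response of these genes runs through short motifs near the start site. Each line gives the 200 bases before the RefSeq start (build GRCm38.p6) of a gene that was called higher, or of Mki67, which was called lower. Capitals mark matches on either strand to GAAANNGAA, the core of the interferon-stimulated response element, in Cxcl9, Gbp2b, Tgtp1 and Cd274, to TTCNNNGAA, the gamma-activated site, in Tgtp1 and Irf1, and to TTTGAA, the cell cycle homology region, in Mki67.
Cxcl9 (chr5:92328080-92328279, minus strand): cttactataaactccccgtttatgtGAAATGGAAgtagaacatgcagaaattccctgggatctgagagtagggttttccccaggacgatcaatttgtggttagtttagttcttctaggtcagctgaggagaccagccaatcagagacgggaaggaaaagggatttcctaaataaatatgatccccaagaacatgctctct
Gbp2b (chr3:142594647-142594846, plus strand): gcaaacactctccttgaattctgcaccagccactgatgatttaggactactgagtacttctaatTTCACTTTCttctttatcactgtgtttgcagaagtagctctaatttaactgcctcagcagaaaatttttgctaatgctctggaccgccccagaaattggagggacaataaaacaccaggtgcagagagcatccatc
Tgtp1 (chr11:48992247-48992446, minus strand): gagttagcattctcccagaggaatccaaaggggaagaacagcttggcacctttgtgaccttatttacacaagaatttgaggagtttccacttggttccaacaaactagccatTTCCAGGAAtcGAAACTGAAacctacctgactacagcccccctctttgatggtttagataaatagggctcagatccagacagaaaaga
Cd274 (chr19:29367238-29367437, plus strand): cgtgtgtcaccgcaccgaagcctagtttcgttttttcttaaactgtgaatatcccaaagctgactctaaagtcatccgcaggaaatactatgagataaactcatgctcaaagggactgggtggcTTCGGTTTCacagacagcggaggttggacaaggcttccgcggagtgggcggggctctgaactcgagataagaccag
Irf1 (chr11:53769814-53770013, plus strand): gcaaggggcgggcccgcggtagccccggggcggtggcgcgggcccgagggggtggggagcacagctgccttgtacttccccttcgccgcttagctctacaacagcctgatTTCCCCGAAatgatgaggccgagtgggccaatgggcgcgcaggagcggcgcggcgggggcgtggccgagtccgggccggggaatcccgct
Mki67 (chr7:135716380-135716579, minus strand): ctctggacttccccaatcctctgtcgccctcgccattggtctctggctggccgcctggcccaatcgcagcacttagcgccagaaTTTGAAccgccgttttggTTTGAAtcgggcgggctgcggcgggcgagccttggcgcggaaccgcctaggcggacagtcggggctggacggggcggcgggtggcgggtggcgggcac

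Across the RefSeq promoter table, with windows of 300 bases, GAAANNGAA was present in 8.56% of 32851 promoters, in 7.54% of the 11871 that belong to tested genes and in 15.2% of the 1207 of genes called at least 2-fold higher. It was present in 13 of 16 promoters of interferon-gamma induced genes and in 14 of 21 of type I interferon stimulated genes. TTCNNNGAA was present in 6.98% of tested genes' promoters, in 10.4% of those at least 2-fold higher and in 7 of 16 of the interferon-gamma induced list. TTTGAA was present in 12.2% of tested genes' promoters and in 11 of 18 of the cell cycle list. The motifs can overlap each other, several promoters belong to the same gene, and a match is a description of the letters only.

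Type I interferon stimulated genes rose alongside, by smaller amounts. Of 28 tested, 27 were called higher with a median log2 fold change of 1.75, and Oasl1, at 0.76, was not. Ifit3, which restrains viral RNA translation, rose from 14.7 ± 6.75 to 66.2 ± 20.9 FPKM (2.23 ± 0.29), and Irf7, the factor that amplifies the response, from 8.54 ± 3.79 to 47.3 ± 11.5 FPKM (2.48 ± 0.34). Zbp1, a sensor of Z-form nucleic acid, rose by 3.31 ± 0.41. Vector PBS tumour 1 had the highest level of its group for this list, 4.05 beside a group range that began at 3.10. The count with the muscle covariate was 21 and within M-style libraries 18.

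T cell genes were barely measurable in the control tumours. Cd8a (chr6:71373427-71379173), the coreceptor of cytotoxic T cells, had 0, 0.0322, 0.128, 0.0297 and 0.0255 FPKM in the vector PBS tumours and 14.9, 12.8, 16.5, 14.3 and 16 FPKM in the mutant anti-PD-1 tumours. The treated mutant tumours were alike and far above the controls (log2 fold change 4.02 ± 0.37, adjusted p = 6.40e-07). The antibody-only tumours had 0.620 ± 0.553 FPKM and the mutant-only tumours 1.96 ± 2.97 FPKM. Cd3e, a signalling chain of the T cell receptor, rose from 0.0521 ± 0.0238 to 6.51 ± 0.999 FPKM (2.88 ± 0.24), and the receptor kinase Zap70 from 0.165 ± 0.109 to 4.79 ± 0.725 FPKM (2.35 ± 0.18). Cd4, the coreceptor of helper cells, had 0.134, 0.211, 0.550, 0.143 and 0.0922 FPKM against 5.22, 4.10, 0.990, 1.90 and 2.82 FPKM. Its groups did not overlap either, but the treated mutant tumours ranged over a wider span than for Cd8a (log2 fold change 1.67 ± 0.24, adjusted p = 4.06e-05).

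Of the 20 listed T cell genes 16 were tested and 16 called higher, with a median log2 fold change of 2.57. As 13 of those 16 passed the filter through the mutant anti-PD-1 tumours, that count is no separate evidence; in the fit without a filter 20 of 20 were called higher. The 16 calls held with the muscle covariate and within each identifier style. Foxp3, the factor that defines regulatory T cells, stayed below the tested range, at 0.0669 ± 0.0430 against 0.853 ± 0.345 FPKM. The 6 tested genes of the regulatory list, which include Il2rb (1.75 to 28.7 FPKM), Tnfrsf18 and Ctla4, were called higher, 5 of them having passed the filter through the treated mutant tumours; these genes are also used by activated effector cells. Among genes of naive and memory cells 5 of 6 were called higher, Il7r with the largest log2 fold change (2.45) and S1pr1 with the smallest (1.02), and with the muscle covariate 3 were.

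Cytotoxic effector genes were called higher in 17 of 18 cases (median log2 fold change 2.75), and Klrg1, at 0.50, was not. As 8 of the 18 passed the filter only through the mutant anti-PD-1 tumours, that count is no separate evidence; without a filter it was 17 of 18 too. Gzmb (chr14:56258838-56262260), the main granzyme of killer cells, had 21.8, 14.4, 8.48, 3.06 and 7.0 FPKM in the vector PBS tumours and 129.6, 65.1, 57.4, 65.6 and 63.8 FPKM in the mutant anti-PD-1 tumours. The groups were separate, with treated mutant tumour 1 above the other 4 (log2 fold change 3.01 ± 0.60, adjusted p = 0.000887). Prf1, the pore-forming protein that delivers granzymes, rose from 4.69 ± 3.51 to 28.5 ± 2.77 FPKM (2.76 ± 0.50), and Nkg7, a granule membrane protein, from 1.67 ± 1.02 to 55.8 ± 11.3 FPKM (4.68 ± 0.42). Within M-style libraries alone the adjusted p was 0.0800 for Gzmb and 0.0847 for Prf1. Ccl5, a chemokine that killer cells store, had 3.65, 2.65, 2.33, 1.5 and 0.886 FPKM against 144.1, 101.0, 64.1, 73.1 and 42.7 FPKM. Its level did not exceed 5.47 FPKM on average in either single-step group, and its log2 fold change was 4.89 ± 0.44 (adjusted p = 5.03e-07).

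The granzymes encoded beside Gzmb on chromosome 14 did not follow it. Gzmf had 77.6, 93.8, 24.5, 1.85 and 16 FPKM in the vector PBS tumours and 116.5, 24.5, 17.2, 28.1 and 12.7 FPKM in the mutant anti-PD-1 tumours. The groups overlapped almost fully (log2 fold change 0.55 ± 0.84, adjusted p = 0.651). Gzmc, Gzmd, Gzme and Gzmg likewise passed in neither direction, with log2 fold changes of -1.14, 0.25, 0.43 and -0.48. The untreated mutant tumours were the low group for this family: Gzmf stood at 0.975 ± 0.669 FPKM there, and the list score at 0.84 ± 0.42 beside 4.44 ± 1.76 in the vector PBS and 4.10 ± 1.24 in the mutant anti-PD-1 tumours. These genes are close copies of each other, so reads may have been split among them.

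Inhibitory receptors rose with the T cell genes. Pdcd1 (chr1:94038305-94052553), which encodes the antibody's target PD-1, had 0.108, 0.283, 0.412, 0.0901 and 0.0772 FPKM in the vector PBS tumours and 14.9, 17.6, 26.6, 19.8 and 19.6 FPKM in the mutant anti-PD-1 tumours. All treated mutant tumours were far above the controls (log2 fold change 4.17 ± 0.35, adjusted p = 3.06e-07). Lag3, Havcr2 and Ctla4, further receptors of chronically stimulated T cells, rose by 3.05, 2.89 and 2.09 on the log2 scale. Of 13 tested genes 11 were called higher, 7 of the 13 having passed the filter through the treated mutant tumours, and Tigit (0.66) and Nr4a2 (-0.16) did not pass. Among costimulatory genes 7 of 10 were called higher, Slamf7 most (2.84), 6 of the 10 having passed the filter only through the treated mutant tumours, while Tnfsf9, the ligand of 4-1BB, was called lower (-0.75). Without a filter 9 of 14 costimulatory genes were called higher, with a median of 0.74, and none lower.

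Chemokine changes were selective. Of 19 tested T cell and monocyte chemokines 14 were called higher and 1, Ccl12 at -0.91, lower. Monocyte chemokines were among both those that rose and those that did not. Ccl8 rose from 81.0 to 1233.4 FPKM on average (3.92 ± 0.61, adjusted p = 8.59e-05), and Ccl3 and Ccl4 rose by 1.94 and 2.07. Ccl2, Ccl6, Ccl7 and Ccl9 had log2 fold changes of 0.01, -0.34, 0.40 and 0.03 and did not pass. Of the 19, 9 were called higher with the muscle covariate and none lower. Cxcl13, which draws B cells and is also made by T cells, was listed at 0 in all 5 vector PBS tumours and had 26.3, 33.5, 4.44, 5.95 and 13.7 FPKM in the mutant anti-PD-1 tumours (adjusted p = 3.96e-06, no fold being given against 0). Cxcr6, a receptor of tissue-resident T cells, rose from 0.0927 ± 0.0821 to 20.3 ± 5.91 FPKM (4.35 ± 0.36). Cxcl10 rose by 2.34 ± 0.46, with an adjusted p of 0.0995 within M-style libraries. None of 6 tested neutrophil chemokines passed; Cxcl5 came nearest, at 4.38 against 22.1 FPKM on average (log2 fold change 1.78, adjusted p = 0.0521), and passed within M-style libraries (0.000906).

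Natural killer, B cell and dendritic cell genes rose from low levels. Of 8 tested natural killer genes 7 were called higher (median of the list 1.46) and Il18rap (-0.75) lower, 5 of the 8 having passed through the treated mutant tumours, and Klra4 and Klra8 were at 0 in both groups. Ighm, the heavy chain of IgM, had 2.13, 0.742, 1.02, 1.51 and 1.37 FPKM against 50.1, 42.5, 20.9, 15.8 and 37.6 FPKM. Those ranges were separate (log2 fold change 3.86 ± 0.46, adjusted p = 5.42e-06), and 5 of 6 tested B and plasma cell genes were called higher while 9 of the 15 listed, Ms4a1 among them, were not tested. Of the 6 tested, 3 passed the filter only through the treated mutant tumours; without a filter 13 of 15 were called higher and the median was 0.38 in place of 1.63. Xcr1, the chemokine receptor of cross-presenting dendritic cells, rose from 0.0956 ± 0.0407 to 4.05 ± 1.04 FPKM (2.22 ± 0.26). Of 15 tested dendritic cell genes 12 were called higher, 6 with the muscle covariate, and Fscn1 of mature dendritic cells, at -0.09, did not pass. Of the 15, 6 passed the filter only through the treated mutant tumours; without a filter 13 of 18 were called higher.

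Macrophage genes rose from a level that was already high in the controls. Adgre1 (chr17:57358691-57483527), which encodes F4/80, had 14.1, 10, 21.0, 16.7 and 13.8 FPKM in the vector PBS tumours and 146.8, 159.7, 70.4, 74.6 and 99.0 FPKM in the mutant anti-PD-1 tumours. All treated mutant tumours were above the controls and tumours 1 and 2 highest (log2 fold change 2.77 ± 0.35, adjusted p = 9.86e-06). C1qb, a complement subunit made by macrophages, rose from 153.7 ± 37.6 to 724.5 ± 324.5 FPKM (2.25 ± 0.32). Of 20 tested identity genes 16 were called higher, 13 with the muscle covariate, and Cd14 (0.09), Mrc1 (-0.58), Cd163 (-0.76) and Cx3cr1 (-0.55) did not pass. Lyve1, a receptor of lymphatic vessels and of some resident macrophages, fell: its values were 18.9, 11.3, 36.4, 22.5 and 19.9 FPKM against 11.3, 1.79, 0.552, 0.798 and 0.195 FPKM. Treated mutant tumour 1 reached the lowest control, and the log2 fold change was -3.05 ± 0.55 (adjusted p = 0.000357, 0.0791 within M-style libraries). Cbr2 and F13a1, which such macrophages also express, were called lower as well, with overlapping groups and log2 fold changes of -2.52 and -2.05. Within M-style libraries their adjusted p was 0.525 and 0.988. F13a1 is also on the monocyte list, where it was the 1 gene called lower and 6 of 9 tested genes were called higher. The median log2 fold change of that list was 1.53, with Ly6c2 at 3.38 and Ly6c1 at 3.49. With the muscle covariate 3 monocyte genes were called higher and none lower.

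Enzymes of activated myeloid cells moved unevenly. Nos2, which makes nitric oxide, rose from 1.52 ± 1.14 to 14.0 ± 8.14 FPKM (log2 fold change 2.44 ± 0.40), and Acod1 and Ido1, which make itaconate and degrade tryptophan, rose by 3.53 and 2.95. Arg1, which degrades arginine, had 32.8, 82.3, 45.3, 54.0 and 82 FPKM against 253.3, 59.8, 76.4, 68.3 and 23.3 FPKM. The groups overlapped and the gene did not pass (0.39 ± 0.48, adjusted p = 0.559). S100a9, an alarmin of neutrophils, had 9.94, 13, 8.04, 87.2 and 60.7 FPKM against 399.5, 117.7, 55.4, 127.9 and 8.84 FPKM. Treated mutant tumour 5 lay at the level of the low controls, and the gene did not pass (1.75 ± 0.79, adjusted p = 0.0940); leaving that tumour out, leaving vector PBS tumour 4 out, or keeping M-style libraries alone put it past the threshold. Neutrophil genes were called higher in 6 of 12 tested cases, Csf3r most (2.74 ± 0.38), with 9 calls within M-style libraries, 2 within number-only libraries, 2 with the muscle covariate and 3 without the 3 libraries that stood apart. The list's median, 1.52, was 2.65 within M-style and -0.12 within number-only libraries.

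Fc receptors and complement rose broadly. Fcgr4 (chr1:171018920-171029761), an activating receptor for IgG, had 14.7, 5.65, 8.17, 5.08 and 3.63 FPKM in the vector PBS tumours and 251.4, 223.0, 147.3, 155.3 and 213.9 FPKM in the mutant anti-PD-1 tumours. The groups were widely separate (log2 fold change 4.77 ± 0.45, adjusted p = 7.80e-07). Serping1, the C1 inhibitor, rose from 14.0 ± 5.02 to 251.6 ± 80.0 FPKM (4.12 ± 0.42), and the complement component C4b from 7.61 ± 2.51 to 88.4 ± 29.4 FPKM (3.45 ± 0.43). Of 19 tested genes 17 were called higher, 15 with the muscle covariate. The inhibitory receptor Fcgr2b (0.56) and the C5a receptor C5ar1 (-0.45) did not pass.

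**Figure D3:**
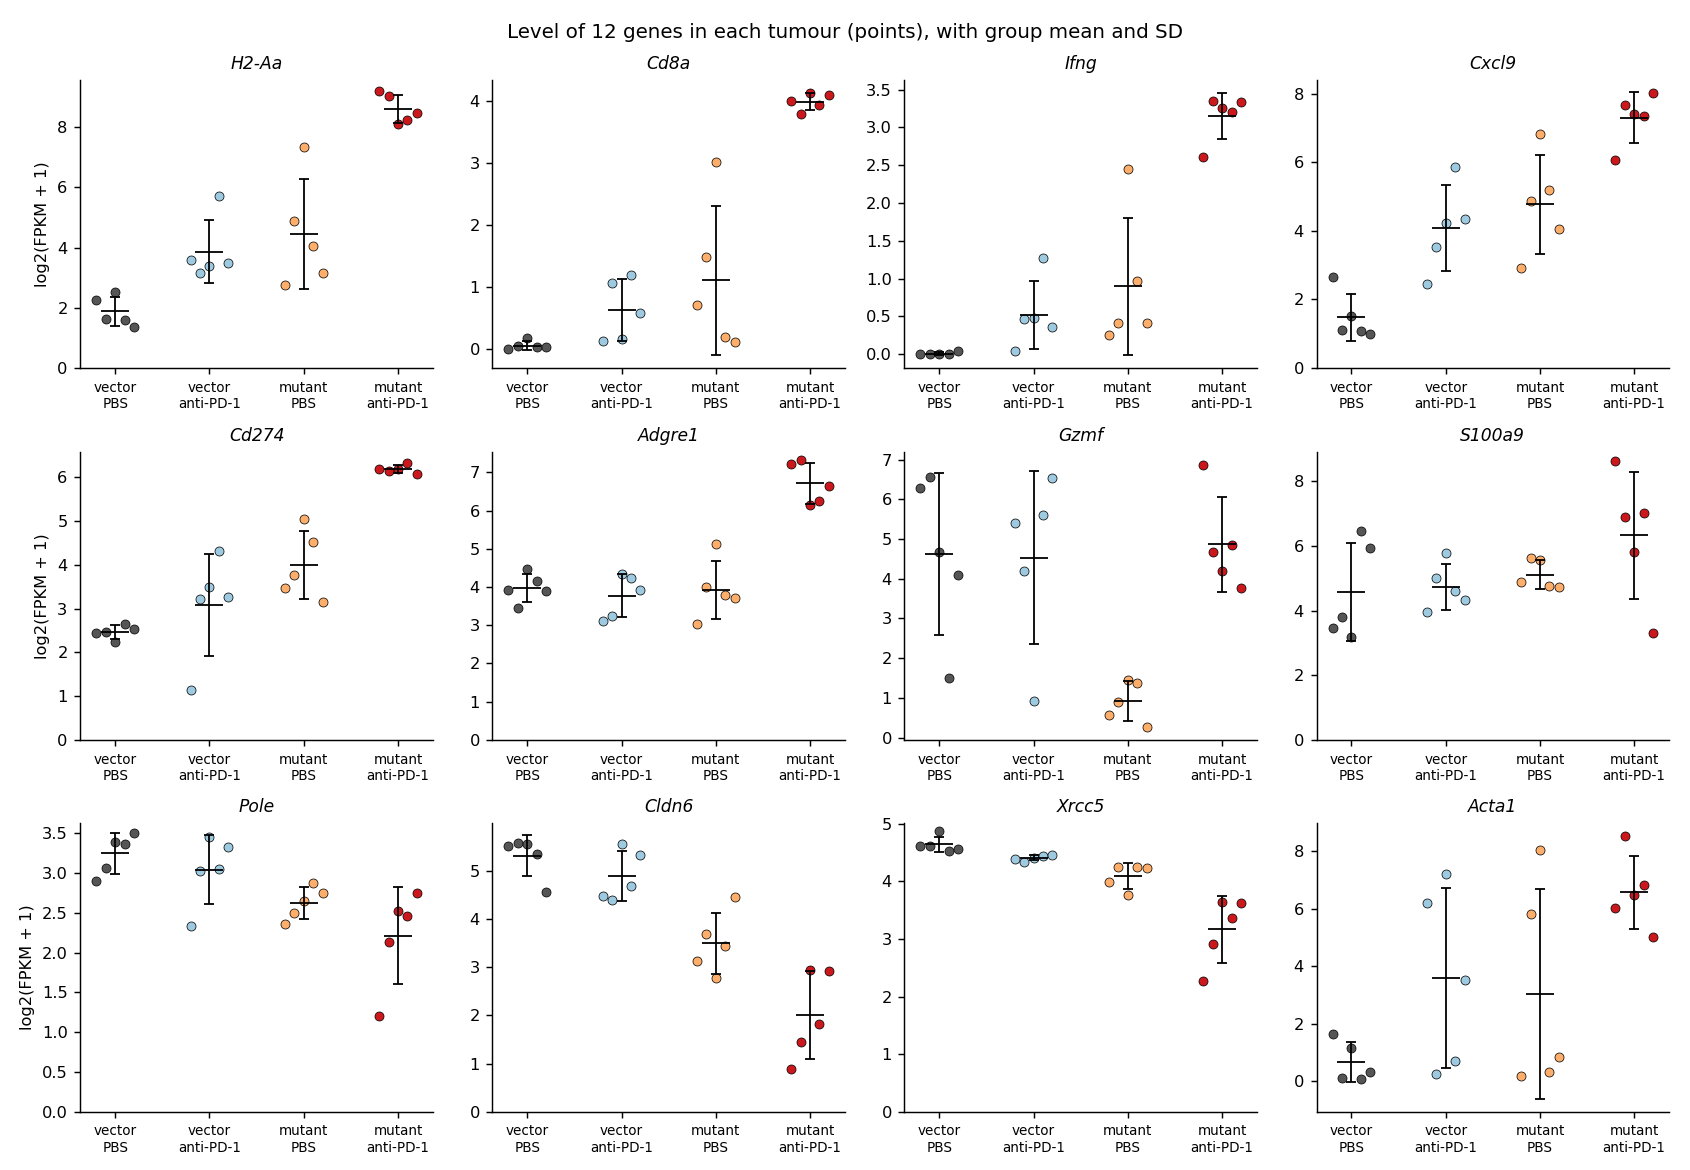
Points are single tumours, bars the group mean ± SD (n = 5), and the vertical axis log2(FPKM + 1) for 12 genes. For H2-Aa, Cd8a, Ifng, Cxcl9, Cd274 and Adgre1 every mutant anti-PD-1 tumour is above every vector PBS tumour, for Pole, Cldn6 and Xrcc5 every one is below, and for Gzmf and S100a9 the groups overlap.

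The largest falls among named genes were those of Cldn6, Plet1 and Lyve1. Cldn6 (chr17:23679249-23682446), a tight junction protein of embryonic epithelium, had 44.9, 46.7, 46.1, 39.6 and 22.6 FPKM in the vector PBS tumours and 0.836, 1.72, 6.64, 2.53 and 6.62 FPKM in the mutant anti-PD-1 tumours. No values were shared (log2 fold change -3.43 ± 0.34, adjusted p = 1.20e-06), and the mutant PBS tumours stood between at 11.3 ± 5.91 FPKM. Its neighbour Cldn9 fell by 2.53 ± 0.33 and Plet1, a surface protein of placental and epithelial progenitors, by 3.29 ± 0.43. Dusp9, a phosphatase of MAP kinases, fell from 8.38 ± 1.49 to 1.48 ± 0.832 FPKM (-1.99 ± 0.19). Lamb1, a laminin chain of basement membrane, had 41.9, 39.3, 45.0, 40.3 and 43.6 FPKM against 20, 18.8, 21.8, 21.0 and 23.2 FPKM. Both groups were narrow and far apart (-1.01 ± 0.11, adjusted p = 2.23e-06).

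Some genes that fell were as low in the mutant tumours under PBS. Gm773, an X-linked predicted gene, had 7.71, 4.15, 4.63, 3.16 and 4.54 FPKM in the vector PBS tumours and was listed at 0 in all 5 mutant anti-PD-1 and all 5 mutant PBS tumours. It had the smallest adjusted p of all genes (3.63e-08). C78283 on chromosome 5 had 6.60 ± 1.10 FPKM and was listed at 0 in all mutant tumours but 1, at 0.0769 FPKM; both genes were named after their values were seen. Among 3 zinc finger genes that lie together on chromosome 4, Zfp988 fell from 2.33 ± 0.437 to 0.222 ± 0.0869 FPKM, Zfp978 by 1.79 and Zfp985 by 2.48 on the log2 scale; they are close copies. For Zfp988 the mutant PBS tumours stood at 0.277 ± 0.0993 FPKM and the vector anti-PD-1 tumours at 2.32 ± 0.553 FPKM. Masp1, a protease of the lectin pathway of complement, fell from 3.99 ± 0.530 to 0.666 ± 0.165 FPKM and stood at 0.581 ± 0.183 FPKM in the mutant PBS tumours.

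Replication and division genes fell modestly and unevenly. Mcm6 (chr1:128331590-128359664), a subunit of the replicative helicase, had 47.0, 49.3, 51.6, 50.4 and 50.1 FPKM in the vector PBS tumours and 12.7, 24.7, 35.2, 31.2 and 42.0 FPKM in the mutant anti-PD-1 tumours. The controls were alike, and treated mutant tumours 1 and 2 were the lowest (log2 fold change -0.93 ± 0.19, adjusted p = 0.00116). Of 35 tested replication genes 21 were called lower and none higher (median -0.57), and of 25 cell cycle genes 15 and none (median -0.62), beside 18.0% lower over all genes. Without the 3 libraries that stood apart these counts were 8 and 5, and with the muscle covariate 6 and 8. Within M-style libraries they were 20 and 16, and within number-only libraries 3 and 1. The medians were -0.61 and -0.81 with the muscle covariate, and -0.23 and -0.23 without the 3 libraries. Mki67, the proliferation marker, had 44.8, 45.5, 51.8, 53.5 and 54.1 FPKM against 15.1, 28.3, 45.8, 47.0 and 58.8 FPKM. The groups overlapped (-0.60 ± 0.23, adjusted p = 0.0497), and 16 of 24 alternatives ended its call.

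Among checkpoint and repair genes 14 of 27 were called lower and none higher (median log2 fold change -0.41), beside 18.0% lower over all tested genes. Xrcc5 (chr1:72307421-72394952), which encodes Ku80 of the end-joining pathway, had 23.6, 23.5, 28.4, 22 and 22.7 FPKM in the vector PBS tumours and 3.85, 6.51, 11.5, 9.32 and 11.4 FPKM in the mutant anti-PD-1 tumours. The groups were separate (-1.53 ± 0.18, adjusted p = 6.10e-06), and every alternative kept the call. Xrcc5 and Mcm6 both lie on chromosome 1, where 28.7% of 871 tested genes were called lower. The part of that chromosome in their falls was not tested. Ercc1, a nuclease subunit of excision repair, fell from 53.1 ± 5.45 to 27.6 ± 15.6 FPKM (-1.23 ± 0.29, adjusted p = 0.00331, 0.0567 within number-only libraries). With the muscle covariate 4 of the 27 were called lower (median -0.41), and without the 3 libraries that stood apart 8 (median -0.21). Within number-only libraries 6 were called lower (median -0.19).

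Genes of protein synthesis fell together. Of 20 cytosolic ribosomal protein genes 14 were called lower (median log2 fold change -0.74), beside 18.0% lower over all tested genes. For 18 of the 20 the groups did not overlap, beside 30.5% of all tested genes in either direction. With libraries scaled by their median ratio, 5 of the 20 were called lower. Rpl7 had 688.2, 653.3, 654.9, 508.6 and 450.0 FPKM against 243.9, 247.9, 324.9, 367.4 and 299.3 FPKM. Each treated mutant tumour was below each control (-0.99 ± 0.15, adjusted p = 6.40e-05). Of 19 genes of ribosome biogenesis 13 were called lower, with Nop58 and Ncl, nucleolar proteins that process ribosomal RNA, at -1.23 and -1.05. Of 20 aminoacyl-tRNA synthetases, which charge tRNAs, 13 were called lower and Wars higher (1.49 ± 0.29); Wars is also on the interferon-gamma induced list, and its adjusted p was 0.128 within M-style libraries. With the muscle covariate 4, 3 and 2 genes of these lists were called lower, and without the 3 libraries that stood apart 19, 7 and 7. The medians with the muscle covariate were -0.76, -0.55 and -0.69, beside -0.74, -0.65 and -0.73 in the main fit.

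Amino acid and stress genes of the ATF4 programme had the lowest median of all lists, -1.03. Of 19 tested genes 12 were called lower, beside 18.0% over all tested genes. Fewer were called lower with the muscle covariate (4, at a median of -0.92) and within number-only libraries (6). The median was -0.46 without the 3 libraries that stood apart and -0.50 within number-only libraries. Chac1, which degrades glutathione, had 9.11, 11.9, 11.3, 18.6 and 10.2 FPKM against 1.28, 3.25, 7.28, 5.60 and 6.03 FPKM. The ranges did not meet (-1.39 ± 0.28, adjusted p = 0.000878, 0.0607 with the muscle covariate), although the mutant PBS tumours were the highest group at 20.3 ± 6.37 FPKM. Asns and Shmt2, enzymes of asparagine and serine metabolism, fell by 1.58 and 1.13 on the log2 scale. Atf3, an early stress factor that immune cells also induce, rose by 1.99 ± 0.37, with an adjusted p of 0.0892 within number-only libraries. The epidermal growth factor ligands Areg, Ereg, Hbegf and Btc fell by 1.63, 1.51, 1.59 and 1.62; for Areg the mutant PBS tumours were again highest, at 24.7 ± 12.1 FPKM, beside 8.30 ± 2.13 FPKM in the controls and 2.32 ± 1.42 FPKM in the treated mutant tumours. With the muscle covariate the adjusted p of Areg was 0.0739. Of 20 tested genes of the growth factor and AP-1 list, 8 were called lower and 1 higher (median -0.53), beside 18.0% and 16.6% over all tested genes. With the muscle covariate 1 of the 20 was called lower (median -0.39), and without the 3 libraries that stood apart 3 (median -0.17). Of 18 tested cholesterol genes 9 were called lower (median -0.66), beside the same 18.0%, and 1 with the muscle covariate (median -0.60). Hypoxia and glycolysis genes gave 2 calls in 21, beside 34.6% called over all tested genes. The 2 were Pfkfb3 (1.63) and Pfkp (1.02), both higher, with adjusted p of 0.0691 and 0.109 under the muscle covariate.

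Stromal genes rose in some tumours only. Col1a1, a chain of fibrillar collagen, had 32.5, 15.9, 54.7, 52.3 and 86.7 FPKM in the vector PBS tumours and 600.0, 390.1, 66.4, 84.0 and 56.1 FPKM in the mutant anti-PD-1 tumours. The rise lay in treated mutant tumours 1 and 2, the 3 others being inside the control range (1.84 ± 0.68, adjusted p = 0.0438); without the 3 libraries that stood apart the adjusted p was 0.799. Of 20 collagen and fibroblast genes 9 were called higher, 1 without those libraries, 1 with the muscle covariate, 18 within M-style and 1 within number-only libraries. Endothelial genes were called higher in 11 of 16 cases, 2 with the muscle covariate and 5 without those libraries. Acta1, the actin of skeletal muscle, had 2.15, 0.0761, 1.24, 0.0639 and 0.255 FPKM against 64.0, 363.6, 86.9, 111.2 and 31.6 FPKM. The log2 fold change was 6.05 ± 1.48 (adjusted p = 0.00440, 0.313 with the muscle covariate), and the mutant PBS tumours, at 63.2 ± 112.3 FPKM, varied as widely. Of 19 tested muscle genes 18 were called higher, 8 of the 19 having passed the filter only through the treated mutant tumours, and without a filter 15 of 20. Without the 3 libraries that stood apart 7 were called higher, within M-style libraries 3, and with the muscle score, made from these genes, as a covariate 1. Erythroid genes, a marker of blood in the sample, did not pass in any of 5 cases.

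**Figure D4:**
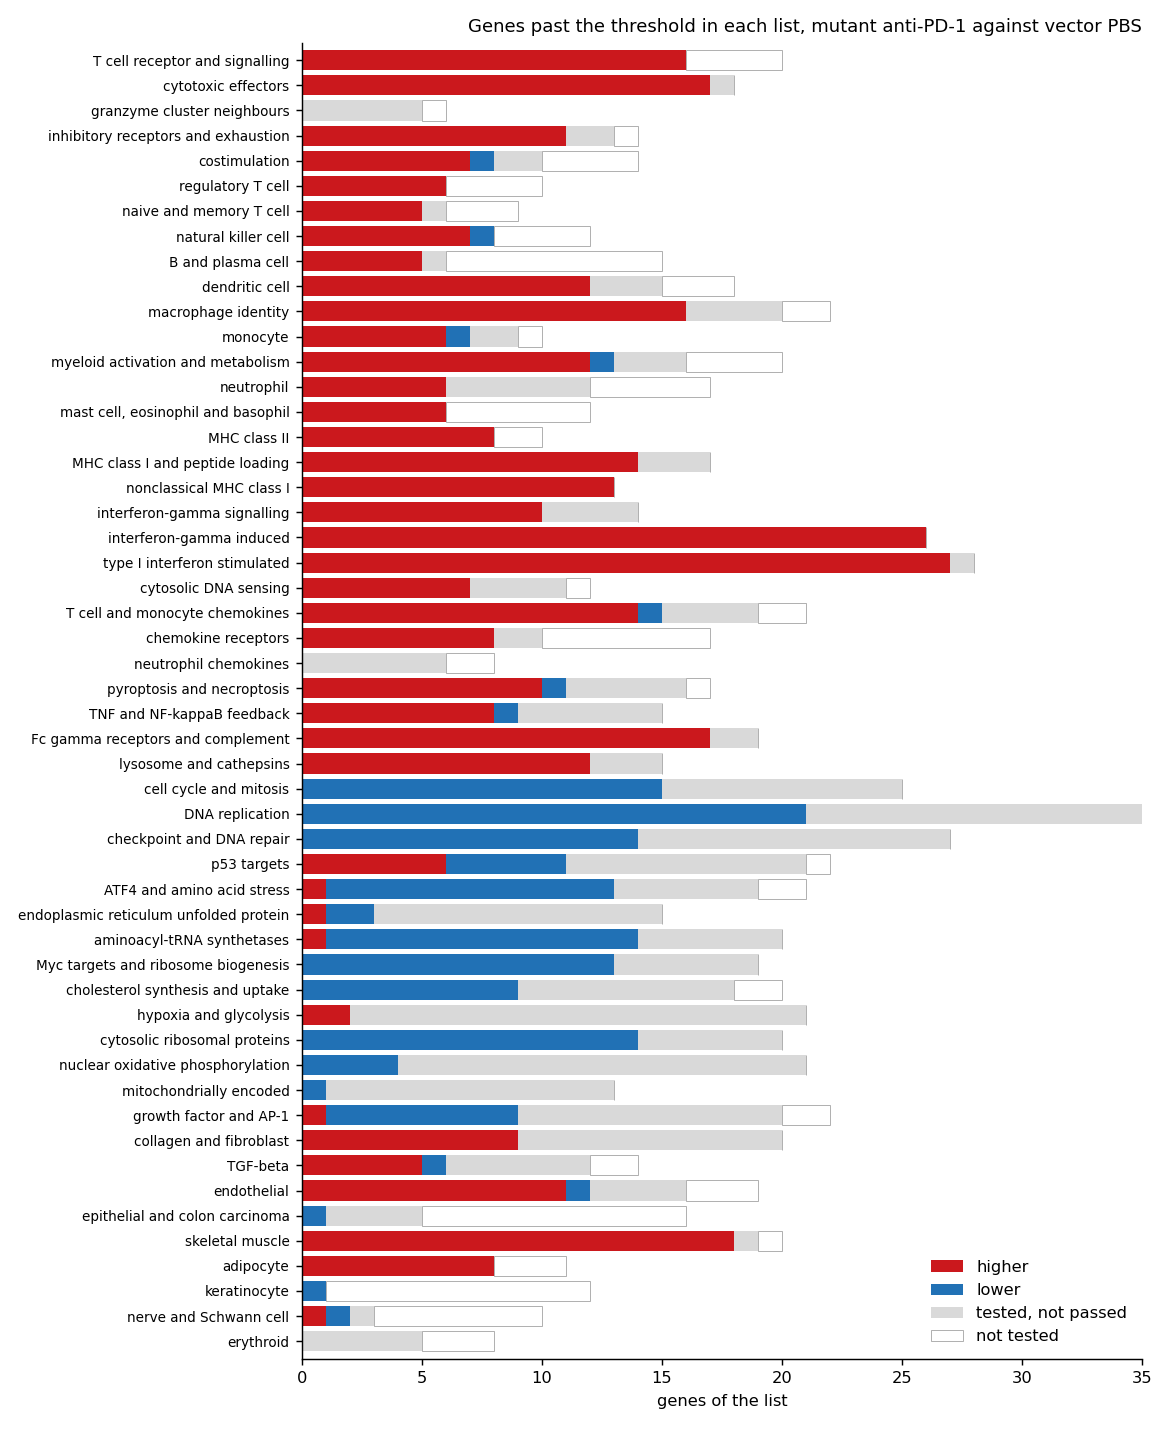
Each bar is 1 of 52 gene lists and its length the number of listed genes: red called higher, blue called lower, grey tested and not passed, white not tested. Immune and interferon lists are red over most of their length, replication, translation and ATF4 lists hold blue but almost no red, and granzyme cluster neighbours, neutrophil chemokines and erythroid genes hold no called gene.

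The combined difference was then set against its 2 single steps. The departure is the combined log2 fold change minus the antibody-only and mutant-only log2 fold changes, each against the same 5 vector PBS tumours, so that 0 means that the single folds multiply. It was called for 1308 of 13982 genes (9.35%), positive in 1035 and negative in 273, and 967 of the 2326 genes called higher had a called positive departure. Those counts depend on few libraries: 387 were called without the 3 that stood apart, and leaving out vector PBS tumour 3, 4 or 5 gave 849, 797 and 814, and mutant anti-PD-1 tumour 1 or 2 gave 782 and 688. A pseudocount of 0.1 gave 876. None of the antibody-only and mutant-only tumours was left out by itself, so dependence on them is not covered. In the mutant PBS group, tumour 3 had a T cell list score of 2.15 beside 0.40 to 0.94 in the others.

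Several T cell and macrophage genes exceeded the sum of their single steps. Cd8a rose by 0.57 with antibody alone and 1.05 with the mutant alone, and the departure was 2.40 ± 0.52 (adjusted p = 0.00899). Adgre1 had single steps of -0.20 and -0.05 and a departure of 3.02 ± 0.49 (adjusted p = 0.00290). Ccl5, at 0.55 and 0.30, departed by 4.04 ± 0.61 (adjusted p = 0.00236). The departure was called for 16 of 16 T cell genes, 16 of 28 type I interferon stimulated genes, 16 of 19 Fc receptor and complement genes and 13 of 20 macrophage genes. The T cell count is no separate evidence, since 13 of those 16 genes passed the filter only through the mutant anti-PD-1 tumours, which favours genes that were low in the single steps. For interferon-gamma induced genes it was called in 0 of 26, with a median departure of 0.86, and for MHC class II in 1 of 8 (median 1.97): Cxcl9 rose by 2.61 and 3.30 in its single steps and its departure was -0.09 ± 0.91 (adjusted p = 0.967). H2-Aa departed by 2.36 ± 0.84 (adjusted p = 0.0793). With SEs of this size, a departure that misses the threshold does not show that the steps add up. Gzmf, whose mutant-only step was -3.71, departed by 4.36 ± 1.19 (adjusted p = 0.0291) and Areg by -2.74 ± 0.48 (adjusted p = 0.00378).

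**Figure D5:**
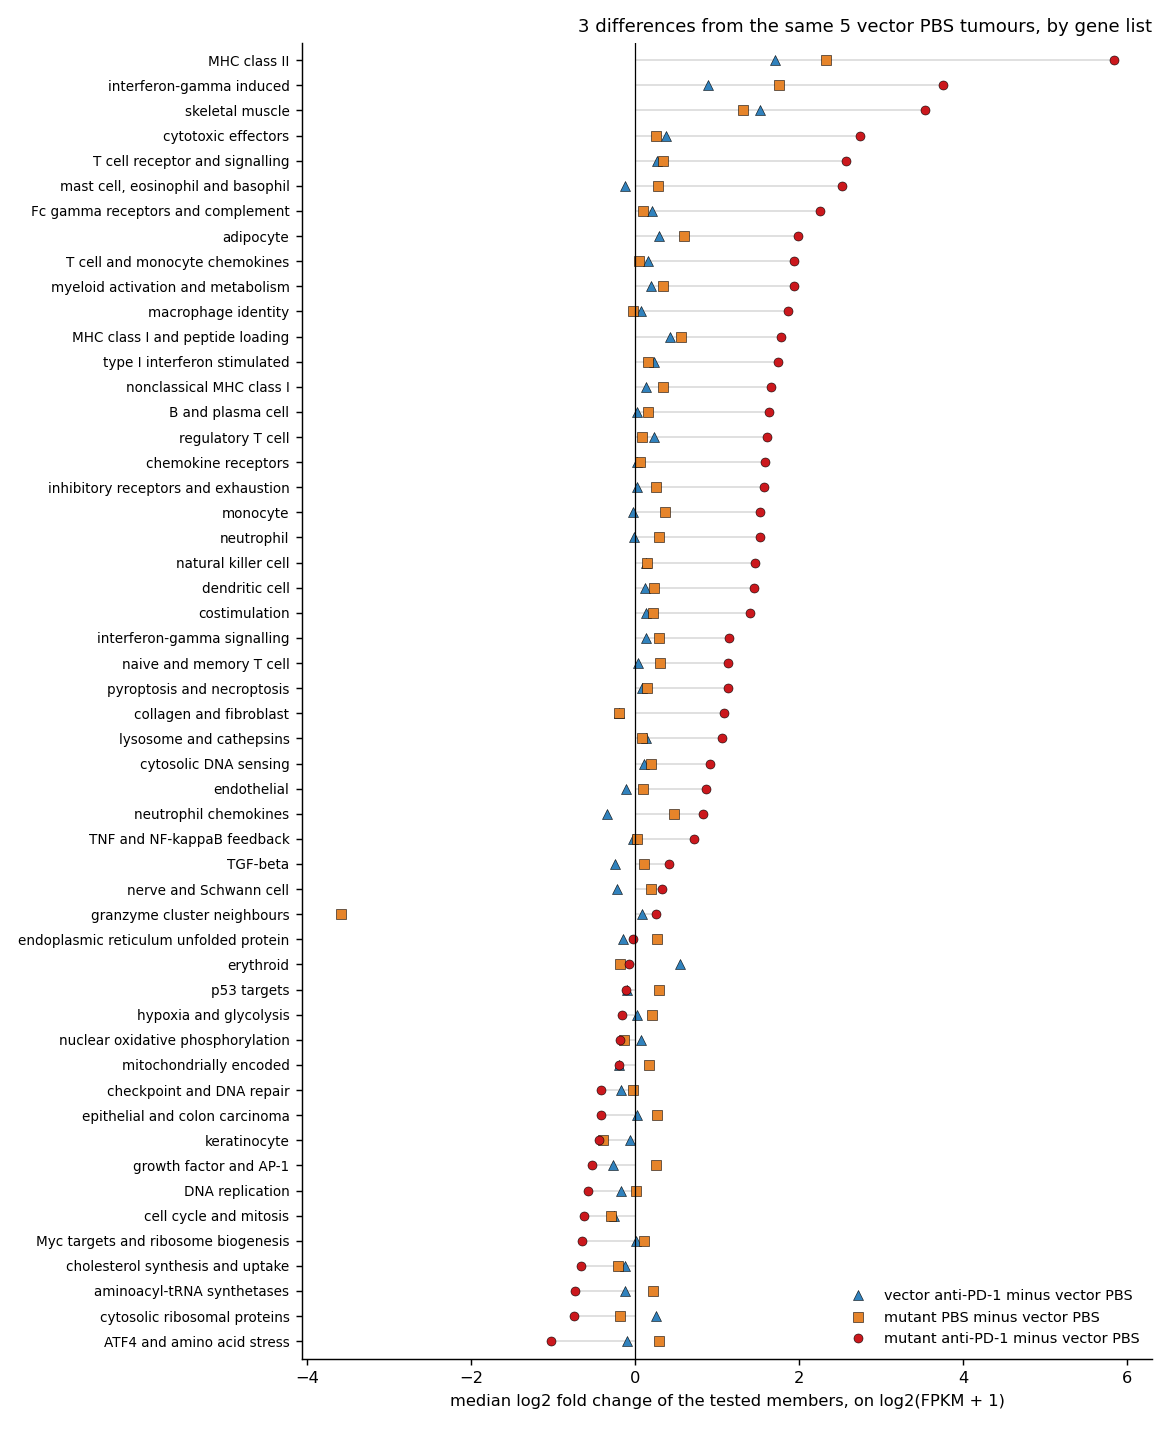
For each gene list, the median log2 fold change of its tested genes is shown for antibody alone (triangles), mutant alone (squares) and both (circles), all 3 against the same 5 vector PBS tumours, which they share. The combined median is the farthest to the right for MHC class II at 5.84, and the granzyme cluster neighbours are the list with a mutant-only median far to the left, at -3.59.

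By gene class, 33 of 1223 tested processed pseudogenes (2.70%) were called higher and 331 (27.1%) lower, beside 18.5% and 17.6% of 11479 protein-coding genes. All 7 variable, 10 joining and 4 constant segments of T cell receptor genes that were tested were called higher, Trbv13-2 being listed at 0 in the 5 controls and at 3.59 to 11.2 FPKM in the treated mutant tumours; the filter favours such genes. By chromosome, chromosome 1 had 28.7% of 871 tested genes called lower, above the 11.3% to 24.1% of the other autosomes, and chromosome 11 had 22.1% of 1108 called higher. By level, 37.7% of the 700 genes with a mean log2(FPKM + 1) of 6 or more were called lower, against 12.6% of those between 1 and 2.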

How the data were processed

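Total RNA of CT26 tumours was extracted with Trizol and sequenced on Illumina libraries, per the labels' protocols. FPKM values per gene are used as the authors deposited them; FastQC, STAR 2.5, Cuffnorm, DESeq and mm10 are named, with no stated roles, per the submitters' processing notes. The files do not name their unit, which was taken to be FPKM, and the reads behind each value are unknown. Here limma 3.58.1 (R 4.3.3) was fitted with an intensity trend to log2(FPKM + 1) of 13982 genes with at least 1 FPKM in 5 of the 20 libraries, over 4 groups, with identifier style as a term, with the Benjamini-Hochberg adjustment taken over all tested genes. The script was tested on simulated data. Named genes are the 15 largest rises and falls above a minimum mean level and the 10 smallest p in each direction, both leaving out predicted genes, pseudogenes, clone names and antigen receptor segments, plus up to 4 per list and a fixed panel. The members and lists were chosen with earlier results of these data known. Gene positions are from GENCODE vM21 (mm10), promoters from RefSeq (GRCm38.p6). Summaries and figures used Python 3.11.15, pandas 2.3.3, numpy 2.4.6 and matplotlib 3.10.9. Alternatives changed the pseudocount, filter, scaling, weights, covariates and libraries. Some genes are not reported here.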

Additional observations from a re-analysis of the deposited data

Results flagged for a closer look

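Libraries were looked at for a value far from the 4 others of their group in 148 groups, and 11 had one, where chance marks about 1 in 20. Among list scores (mean log2(FPKM + 1)), mutant anti-PD-1 tumour 1 was high for granzyme cluster neighbours (6.27) and low for interferon-gamma induced genes (4.78). Vector PBS tumour 1 was high for MHC class I (5.35) and type I interferon stimulated genes (4.05), and vector PBS tumour 3 for inhibitory receptors (1.32) and chemokine receptors (1.86). For cell cycle genes vector PBS tumour 2 stood apart at 4.50. Among genes, Cd8a was high in vector PBS tumour 3 (0.128 FPKM), Ifng was the only nonzero value of its group in vector PBS tumour 5 (0.0302 FPKM) and low in mutant anti-PD-1 tumour 1 (5.10 FPKM), and Gzmb was high in that tumour (129.6 FPKM).

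The effect of the antibody differed between mutant and vector tumours, by the limma test of the departure from the sum of the single log2 differences, for 1308 of 13982 genes. Of 68 named genes looked at, 21 passed, beside 9.35% of all tested genes. The 68 were in part chosen by their combined difference, which the departure contains. In the T cell list 13 of the 16 tested genes passed the filter only through the mutant anti-PD-1 tumours. That choice and that filter favour positive departures, so the 21 are no separate evidence. T cell genes departed upward: Cd3d by 2.39, Cd3e by 2.08, Cd3g by 2.53, Cd8a by 2.40, Cd8b1 by 2.73, Cd4 by 1.44, Cd28 by 1.61, Zap70 by 1.85 and Ms4a4b by 2.51. The receptors Pdcd1 and Havcr2 departed by 2.81 and 1.97. Effector genes departed by 4.04 (Ccl5), 1.74 (Ifng), 3.38 (Gzmb), 2.77 (Prf1), 4.36 (Gzmf) and 3.51 (Gzme). Myeloid genes departed by 3.02 (Adgre1) and 1.88 (Nos2), and Trpm2, a calcium channel of leukocytes, by 1.54. Baalc departed downward, by -0.78.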

How the results depend on the processing

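The count of called genes ran from 3381 to 4929 when 1 of the 10 compared tumours was left out and was 1832 with the skeletal muscle score as a covariate. It was 6262 with quantile normalization, 6779 with sample weights and 6931 in a fit of the 10 compared libraries alone. The share called higher ran from 47.8% to 55.7% when 1 tumour was left out and was 63.6% without a filter, 63.8% with the muscle covariate and 59.9% at equal totals. In the other direction, it was 38.3% with quantile normalization, 41.2% in the 10 compared libraries alone and 42.1% with sample weights. The count of departures was 804 with the filter at 10 libraries, 3214 with sample weights and 387 without the 3 libraries that stood apart. It ran from 688 to 1514 when 1 of the 10 compared tumours was left out. The antibody-only and mutant-only tumours were not left out 1 at a time. The count has no value in a fit of the 10 compared libraries alone. Medians of 6 lists changed sign. The median of granzyme cluster neighbours ran from -0.28 to 0.54 when 1 tumour was left out (-0.16 without mutant anti-PD-1 tumour 1). Within number-only libraries the medians were -0.12 for neutrophil genes and -0.67 for neutrophil chemokines, against 1.52 and 0.83 over all libraries, and -0.45 for nerve genes. Nerve genes gave -0.15 with the filter at 10 libraries, -0.23 with weights and -0.21 without the 3 libraries, hypoxia genes 0.22 with weights and 0.23 without the 3 libraries, and p53 targets 0.11 with the muscle covariate. The causes were not tested. Of 242 named genes none reversed; 218 were called, and 44 of those calls were lost with the muscle covariate, 24 within each identifier style and 21 without the 3 libraries. No paired analysis was possible because the labels carry no replicate numbers. The unknown depth limits what can be said of genes near 0 FPKM.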

Other observations

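Lists of lytic cell death, TNF feedback and lysosomal genes held called genes as well. Of 16 tested pyroptosis and necroptosis genes 10 were called higher and Gsdme, a gasdermin, lower (median log2 fold change 1.13). Of 15 TNF and NF-kappaB feedback genes 8 were called higher and Nfkb2 lower (median 0.72), and of 15 lysosomal genes 12 were called higher (median 1.06). Of the lysosomal genes 5 were called higher with the muscle covariate, and their median was 0.49 without the 3 libraries that stood apart, 0.57 within number-only and 2.03 within M-style libraries. The covariate left 5 higher calls in the TNF list. All 6 tested mast cell, eosinophil and basophil genes of 12 listed were called higher (median 2.52), 3 with the muscle covariate. The p53 target list was split, with 6 of 21 higher and 5 lower (median -0.11), beside 16.6% and 18.0% of all tested genes. With the muscle covariate 3 of them were higher and none lower. Of 21 nuclear oxidative phosphorylation genes 4 were called lower (median -0.18), a share near the 18.0% of all tested genes, and 1 with the covariate.

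Besides Cxcl13 and Trbv13-2, genes listed at 0 in all 5 vector PBS tumours included the muscle genes Mb (3.14 to 23.4 FPKM in the mutant anti-PD-1 tumours) and Mybph (1.46 to 4.43 FPKM), Gm156 (1.69 to 5.67 FPKM) and the T cell receptor segments Trbj2-3 (1.53 to 3.32 FPKM), Trbj2-7 (2.25 to 3.36 FPKM), Trgv2 (1.01 to 3.11 FPKM), Trav16d-dv11 (1.13 to 7.08 FPKM) and Trav16n (1.41 to 4.18 FPKM). They were named after their values were seen.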
